A study of Homo sapiens with 2 samples.

Results

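The genes described here encode CD44, the main cell surface receptor for hyaluronan, together with enzymes that make hyaluronan (HAS2, HAS3), enzymes that break it down (HYAL1, HYAL2, HYAL3, CEMIP, CEMIP2) and proteins that tie the tail of CD44 to the actin cortex (EZR, MSN). They were chosen by gene symbol, with earlier results of these data known. Of the 10 genes listed, 9 had a probe set with the gene as its single annotated symbol, out of 19775 such genes, and these 9 genes had 29 of the 54613 probe sets compared. HYAL1 had no such probe set and was not analysed here.

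Hyaluronan is a long unbranched polysaccharide that HAS enzymes spin out through the plasma membrane from activated sugars. CD44 binds it at the cell surface, hyaluronidases and the CEMIP proteins cut it into shorter chains, and ezrin and moesin, members of the ERM (ezrin, radixin, moesin) family, link CD44 to actin. CD44 is widely used as a surface marker of cancer stem-like cells, in pancreatic tumours among others.

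The study profiled QGP1, an established human cell line from a pancreatic neuroendocrine tumour, to describe tumour stem-like cells and to study CD73 as a target in them. One group was ALDH high QGP1 cells, which fluorescence-activated sorting isolated for high aldehyde dehydrogenase (ALDH) activity, and the other was control QGP1 cells. Neither group carries a genetic change or an added agent in the labels, and the sources used here do not say whether control cells were sorted too. Each group had 1 expression array, and both come from a single cell line.

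Values are log2 levels made with robust multi-array averaging (RMA), and a difference is the ALDH-high level minus the control level. With 1 array per group no difference has a replicate check and none was tested. "Over 2-fold", the threshold in the series description, means an absolute log2 difference above 1. Each gene is represented by its brightest probe set, the one with the highest mean level on both arrays. The array medians were 5.68 (ALDH high) and 5.69 (control), and a probe set below 5.68 on average is called dim. Differences between probe sets of the same gene had a pooled SD of 0.23 over 10523 genes. That SD is used as a yardstick, although it leaves out the spread between cultures and sorts. All 8 neuroendocrine markers of the line were bright, among them CHGA (11.50 in ALDH high against 11.70 in control) and CHGB (12.60 against 12.71). Their median difference was -0.09, and SCG5, a granule protein (-0.37), and INSM1, a transcription factor (0.34), lay furthest from 0, in opposite directions.

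CD44 was the 1 gene of the 9 that was over 2-fold different, and it was higher in the ALDH-high cells. Among all genes 0.465% were over 2-fold higher. None of the 9 was over 2-fold lower, against 1.23% of all genes. With 1.5-fold as the threshold CD44 was still the 1 gene that was higher, where 2.61% of all genes were, and none was lower, where 4.21% of all genes were. The other 8 genes lay between -0.13 and 0.54. Over the 9 genes the median difference was 0.18, beside -0.01 over all genes, and 7 of the 9 lay above 0, beside 45.6% of all genes. Because the group was chosen with earlier results of these data known, the shares of all genes are context and not a test. In a bulk sample, fewer cells expressing a gene and less RNA per cell cannot be told apart.

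**Figure D1:**
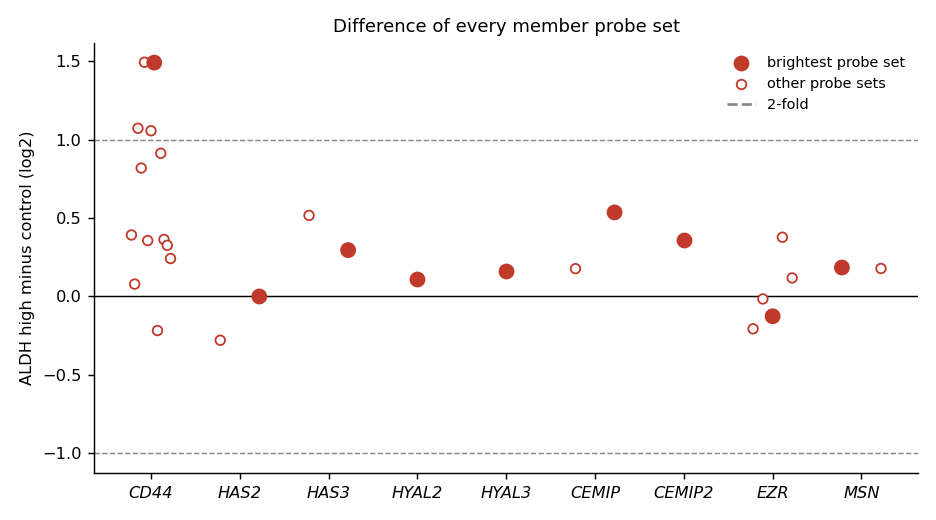
ALDH-high minus control difference (log2) of all 29 probe sets, by gene. Filled points are the brightest probe set of each gene, open points the others, and dashed lines mark 2-fold. Only CD44 has points above 2-fold, 4 of its 13, and the other genes stay within 0.54 of 0.

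CD44, the receptor, was measured by 13 probe sets. Its brightest, 212063_at, read 7.25 in the ALDH-high cells and 5.76 in the control cells, a difference of 1.49 or 2.81-fold. These levels stood at the 69.8th percentile of the ALDH-high array and at the 51.3rd percentile of the control array, near the middle of the latter. The difference ranked 27th from the top among 19775 genes.

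The other bright CD44 probe sets pointed the same way, but both were below 5.68 on the control array. Only their ALDH-high levels made them bright. Probe set 204489_s_at read 6.58 against 5.51, which is 2.10-fold higher. Probe set 204490_s_at read 6.18 against 5.37, which is 1.76-fold higher. Both carry the _s_at suffix, which the array maker gives to probe sets that match several transcripts. Probe sets ending in _x_at are open to cross-hybridisation as well. The probe set 212063_at carries neither suffix.

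Below the median level the CD44 probe sets spread widely. Probe set 209835_x_at differed by 1.49 (5.79 against 4.30), as much as the brightest, and 212014_x_at differed by 1.06 (5.66 against 4.61). Both were in the lower part of the control array, at the 26.4th and 31.1st percentiles, and near the middle of the ALDH-high array. Probe set 217523_at was 1.88-fold higher (3.32 against 2.41), from a control level at the 2.32nd percentile, so the size of that fold rests on a level near the floor.

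The remaining 7 CD44 probe sets were dim on both arrays and differed less. Of these, 6 lay between 0.08 and 0.39, and 216056_at was lower in the ALDH-high cells by 0.22 (3.65 against 3.87). In all, 12 of the 13 lay above 0, where 47.8% of all probe sets did. Of the 13, 6 were over 1.5-fold higher (2.78% of all probe sets) and 4 over 2-fold higher (0.403% of all probe sets). No probe set of CD44 or of the other genes was over 1.5-fold lower (3.09% of all probe sets) or over 2-fold lower (0.842%). The median was 1.07 over the 3 bright probe sets and 0.36 over the 10 dim ones. Because brightness includes the ALDH-high level, this split is not independent of the difference. Taken as the mean of all 13 probe sets CD44 differed by 0.65, and as the median by 0.39, and neither is over 2-fold. Which exons or variants of CD44 each probe set reads is not stated in the labels or annotation used, so the uneven differences could not be assigned to isoforms.

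**Figure D2:**
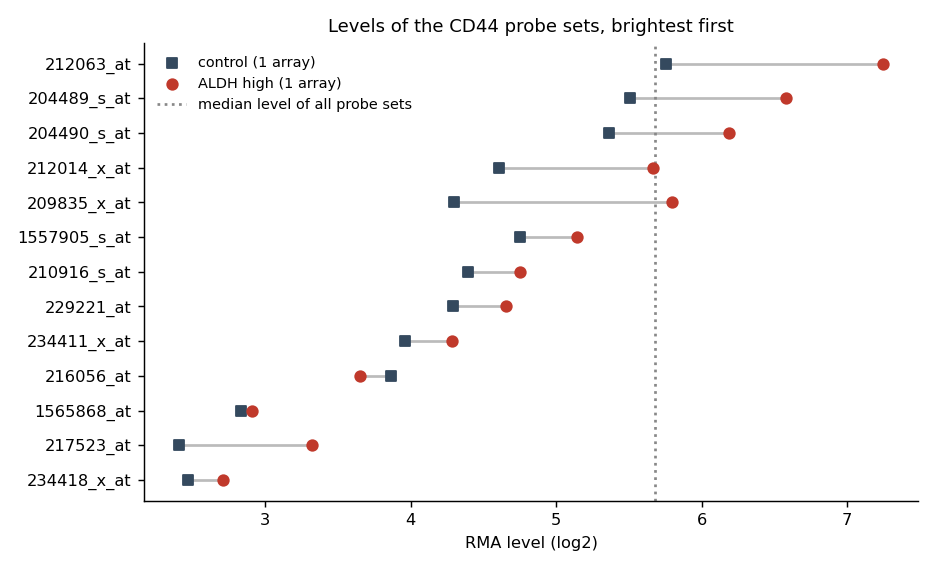
RMA level (log2) of each of the 13 CD44 probe sets on the control array (squares) and on the ALDH-high array (circles), brightest probe set at the top. The dotted line is the median level of all probe sets, 5.68. The ALDH-high value is to the right in 12 of 13 probe sets, and the gap is 1.49 in the top row.

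**Figure D3:**
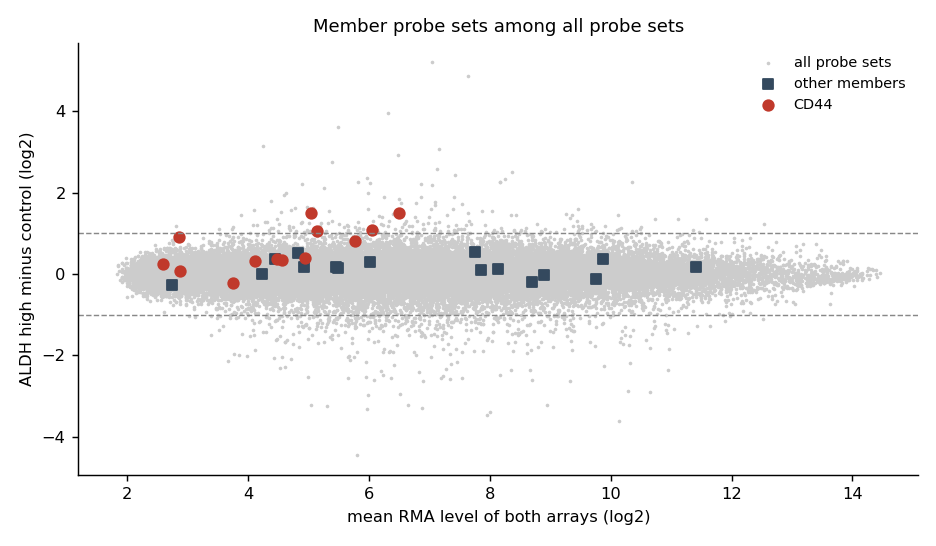
Difference (log2, ALDH high minus control) against the mean level of both arrays (log2) for all 54613 compared probe sets (grey), with CD44 in red and the other 8 genes as dark squares. Dashed lines mark 2-fold. The 4 CD44 probe sets above the upper line have mean levels from 5.05 to 6.50, whereas dark squares lie inside the lines at all levels.

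With 2 arrays the pattern of a gene is only its difference. The genes closest to CD44 in that measure, among 12827 others whose higher level reached the median, were LYPD1 (1.45), ENC1 (1.55) and PLAU, the urokinase-type plasminogen activator (1.56). LYPD1 read 8.01 against 6.56, ENC1 8.64 against 7.09 and PLAU 8.82 against 7.26.

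The hyaluronan synthases differed little. HAS3, which makes shorter chains than HAS2, read 6.17 in the ALDH-high cells and 5.87 in the control cells, a difference of 0.30. Its dimmer probe set differed by 0.52 (5.09 against 4.58), so both HAS3 probe sets were higher, by 1.23-fold and 1.43-fold. HAS2, often the main synthase of mesenchymal cells, was dim throughout. Its brighter probe set had the same value, 4.24, on both arrays, and 206432_at read 2.60 against 2.88. These levels stood between the 4.44th and 25.7th percentiles, where the array could show little, and no detection calls were used that would tell a dim level from absence. HAS1, the remaining synthase, was not analysed here.

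Both hyaluronidases that were measured were nearly level. HYAL2, a GPI-anchored enzyme that cuts long hyaluronan at the cell surface, read 7.91 against 7.80. HYAL3, whose own activity is less clear, read 5.56 against 5.40. The differences of 0.11 and 0.16 are below the spread between probe sets of a gene, and each rests on 1 probe set with the _s_at suffix. The genes lie close together on chromosome 3, with HYAL1 and NAA80 between them in the RefSeq gene table.

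The CEMIP proteins, which act on high-molecular-weight hyaluronan outside the classical hyaluronidases, were somewhat higher. CEMIP, a secreted protein needed for hyaluronan depolymerisation, read 8.03 against 7.49, which is 1.45-fold higher and the largest difference after CD44. Its dimmer probe set, the only one left without the _s_at suffix, differed by 0.18 (5.55 against 5.37). CEMIP2, the membrane-bound relative also known as TMEM2, read 10.05 against 9.69, a difference of 0.36 on its single probe set. Of the 8 genes other than CD44, HAS3, CEMIP and CEMIP2 were the 3 that exceeded the pooled SD between probe sets. The share of all genes beyond that SD was not counted, so whether 3 of 8 is unusual cannot be said. With 32 added to each linear level HAS3 differed by 0.20. The SD was not recomputed on that scale, so this value cannot be set against it.

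The ERM linkers were abundant on both arrays and differed by less than the pooled SD of 0.23 on their brightest probe sets. Over bright probe sets alone the pooled SD was 0.182 (6066 genes), and MSN at 0.185 was just above it. EZR, the ezrin gene typical of epithelial cells, read 9.69 against 9.82, a difference of -0.13. Its 4 bright probe sets ranged from -0.21 to 0.12 without a common direction, and all of them have the _s_at suffix. The fifth, 217230_at, was dim and differed by 0.38 (4.64 against 4.26). MSN, which encodes moesin, read 11.50 against 11.31 on its bright probe set, and its dim one read 5.02 against 4.84. The MSN differences were 0.18 on both. The third family member, RDX (radixin), had a difference of 0.23 (10.95 against 10.72), and its 4 probe sets ranged from 0.02 to 0.34.

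**Figure D4:**
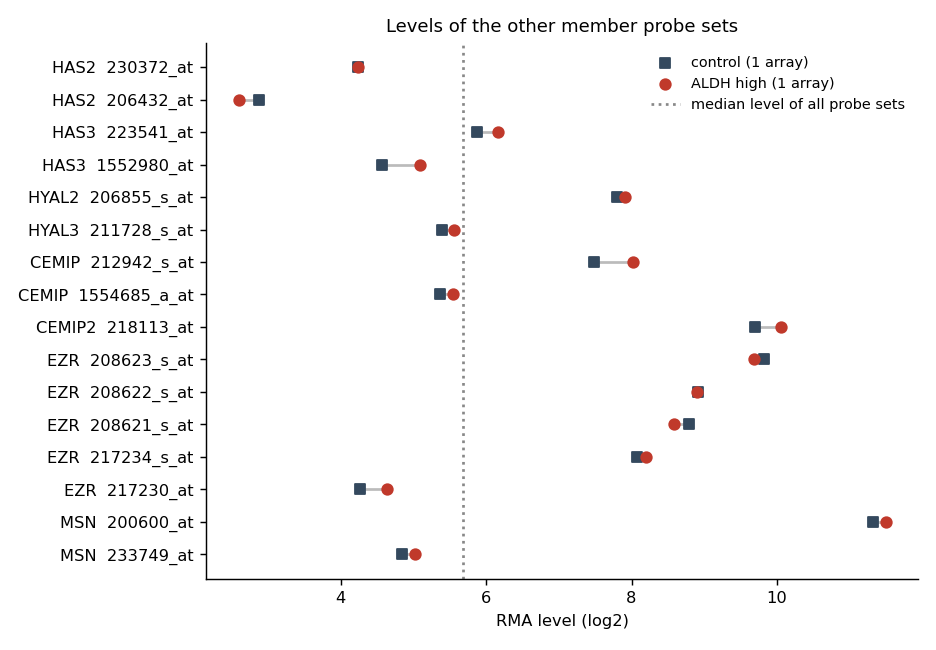
RMA level (log2) of the 16 probe sets of the genes other than CD44, control array as squares and ALDH-high array as circles. The dotted line is the median level of all probe sets, 5.68. The widest gap is 0.54 for CEMIP 212942_s_at, below the 6 widest of CD44, and 11 of the 16 are higher in ALDH high, 4 lower and 1 equal.

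Related genes of the pathway were mostly level, with no gene over 2-fold in any of the 6 lists. Among 5 measured enzymes that supply the sugars, GFPT1, the entry enzyme of the hexosamine pathway, was lower by 0.68 on the log2 scale (11.17 against 11.85), its 4 probe sets lying between -0.68 and -0.55. UGP2, which makes UDP-glucose, was next at -0.19, and the median of the 5 was -0.04. Of 4 further degrading enzymes none lay above 0 and 3 lay below, with HEXA, a subunit of lysosomal hexosaminidase, at -0.44 (its 4 probe sets from -0.44 to 0.09) and GUSB, the lysosomal glucuronidase, at -0.26.

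Among 18 other hyaluronan receptors and binding proteins, HMMR had the largest difference. This receptor for hyaluronan-mediated motility, which also works at the mitotic spindle, was 1.84-fold higher (11.82 against 10.94), and its probe sets differed by 0.88 and 0.90. The next largest difference was that of LAYN, a membrane lectin that binds hyaluronan, at 0.39 on a dim probe set, but its 3 probe sets ranged from -0.24 to 0.39 and 1 of them lay above 0. The median of the list was -0.04, with 5 of 18 above 0, and 4 of the 18 were bright. Genes of G2 and M phase differed in the same direction as HMMR and CD44. On their brightest probe sets all 10 lay above 0, where 45.6% of all genes did. Of the 10, 5 were over 2-fold higher (0.465% of all genes), and the median was 0.93. Their summed linear level was 20729 on the ALDH-high array and 11474 on the control array. Their part in the CD44 and HMMR differences was not tested.

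The list of other ERM family members, partners and kinases, RDX included, had a median of -0.04 over 11 genes. NHERF1, the scaffold that binds ezrin at the membrane, was 1.37-fold higher (7.67 against 7.22), and the kinase ROCK2 1.25-fold higher. The 8 measured splicing regulators of CD44 had a median of 0.22 with 6 above 0. ESRP1, the epithelial factor that favours inclusion of the variable exons of CD44, was 1.49-fold lower (10.64 against 11.22), with both its probe sets below 0. HNRNPM, which acts against it on CD44, was 1.27-fold higher (12.28 against 11.94), with 6 of 7 probe sets above 0. Neither is over 2-fold.

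CD44 ligands, partners and sheddases had a median of -0.03 over 18 genes, 7 of them above 0. EGFR, a receptor tyrosine kinase that associates with CD44, was 1.55-fold higher (8.80 against 8.16), but its 9 probe sets ranged from -0.17 to 0.63. SLC7A11, the cystine transporter that CD44 variants stabilise, was 1.41-fold lower (11.15 against 11.64), with all 3 probe sets below 0.

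**Figure D5:**
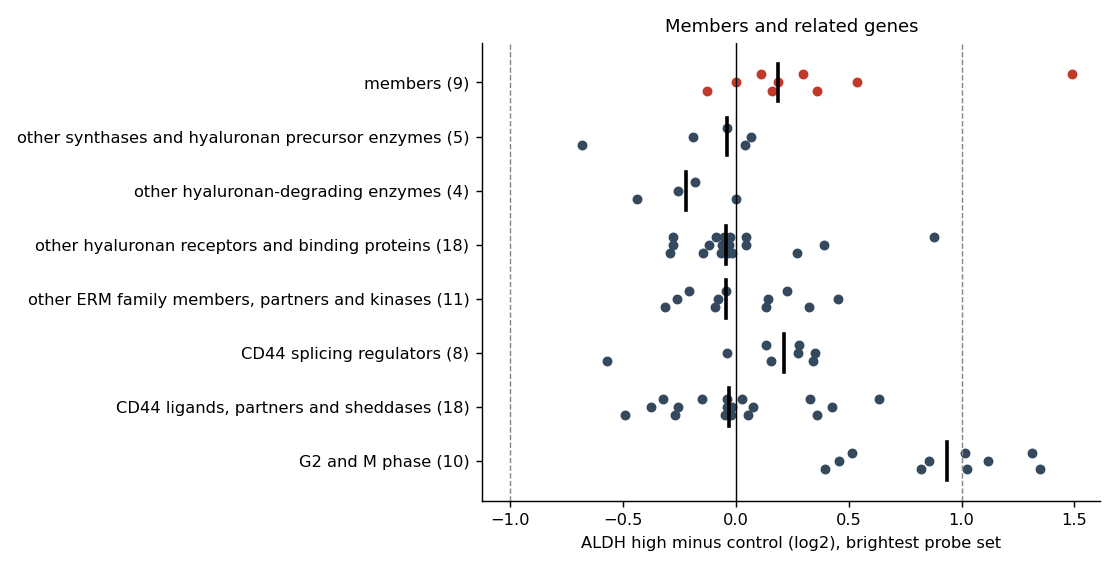
Difference (log2, ALDH high minus control) of the brightest probe set of each gene, for the 9 measured genes of the group (red) and for related lists (dark), with the number of genes in brackets. Black bars are list medians and dashed lines mark 2-fold. CD44 at 1.49 is the red point beyond 2-fold, HMMR at 0.88 leads the binding proteins, and the G2 and M phase genes have a median of 0.93.

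Markers of other cell types were not higher as sums in the ALDH-high cells, and most were dim. The summed linear level of 10 fibroblast and stellate cell markers was 381 in ALDH high and 438 in control, with 2 of 10 bright. FAP (-0.43) and ACTA2 (-0.42) were the furthest from 0. COL1A1 was the brightest of the 10 (7.46 against 7.74) and so weighs most in these sums. Its 5 probe sets ranged from -0.72 to 0.08. For 6 endothelial markers the sums were 221 and 222, with ESAM at 0.37 and VWF at -0.21. For 6 measured leukocyte markers they were 201 and 256, with 2 bright. LYZ and CD14 were over 2-fold lower (2.52-fold and 2.03-fold), both from dim levels. The other LYZ probe set differed by -0.42, and CD14 rests on 1 probe set.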

How the data were processed

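Per the labels' protocols, total RNA of ALDH high and control QGP1 cells was column-purified and labelled with a 3' in vitro transcription kit. The deposited log2 levels were computed by the authors with RMA, as the submitters' processing notes name it. RMA corrects background, aligns the distributions of arrays and combines probes into 1 level per probe set, which can shrink differences of dim probe sets. The RMA version and array batch are not given in the sources used. Of 54675 probe sets, 62 controls were left out. Symbols came from GEO's platform annotation (41097 probe sets with 1 symbol, 1801 with several, 11777 with none in that table, and only the first kind was used), and all 9 measured genes matched RefSeq by Entrez ID.

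Differences, folds and counts were computed with Python (pandas 2.3.3, numpy 2.4.6) and the 2-fold count was checked on simulated data. The simulated noise was the same at all levels, so that check covers the counting step and not the error of these arrays. With 1 array per group there is no p-value, and the number of arrays limits the precision. The alternatives were a pseudocount of 32 on the linear scale, means or medians over probe sets, leaving out _s_at and _x_at or dim probe sets, median centring, a 1.5-fold threshold and probe sets with several symbols. Named are all 10 genes of the group, HAS1, RDX and HMMR, in every other list at least the 2 genes with the largest difference and up to 4 over 2-fold (for G2 and M phase only the list is given), and the 3 genes closest to CD44. CHGA, CHGB, NAA80, COL1A1 and the gene names in background clauses stand outside that rule. The genes and lists were chosen with earlier results of these data known.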

Additional observations from a re-analysis of the deposited data

How the results depend on the processing

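CD44 stayed higher in the ALDH-high cells under all 6 alternatives, but not all of them could change its value. Its brightest probe set is bright and has neither suffix. Leaving out _s_at and _x_at or dim probe sets therefore had to return the same value. Median centring could shift it only by the small gap between the array medians. The CD44 difference was 1.10 with a pseudocount, 0.65 as the mean and 0.39 as the median of its probe sets. The number of genes over 2-fold higher was therefore 0 with either average, which by construction weighs the dim CD44 probe sets equally. It was 1 under every other setting, where the settings that could not move CD44 were bound to count it. The 4 CD44 probe sets over 2-fold higher became 1 with a pseudocount, 1 without _s_at and _x_at probe sets and 2 among bright probe sets. The bright count is not independent of the difference, because brightness includes the ALDH-high level. No gene or probe set of the group was over 2-fold lower under any alternative, the 1.5-fold threshold included. For the other 8 genes, 42 of 44 values moved by less than 0.23. The exceptions, both on leaving out _s_at and _x_at probe sets, were CEMIP (0.18) and EZR (0.38), each then read from a dim probe set. Many of the 44 values could not move. HYAL2, HYAL3 and CEMIP2 have 1 probe set each, so means and medians return the same value. For genes with 2 probe sets the mean and the median are the same number. HYAL2 and HYAL3 had no value without _s_at probe sets, and HAS2 and HYAL3 none among bright ones. No paired analysis was possible because each group has 1 array.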

Other observations

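A probe set annotated to both UTP4 and HAS3, and therefore not counted for HAS3, read 5.83 on the ALDH-high array and 5.85 on the control array, a difference of -0.03, whereas both HAS3 probe sets were above 0.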
